A study of Mus musculus with 9 samples.

Results

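The genes described here are 9 markers of astrocytes, Gfap, S100b, Aqp4, Gja1, Gpr37l1, Glul, Apoe, Clu and Sparcl1, measured on arrays of laser-cut spinal motor neurons. They were given as a list of names, and every probe set (a group of oligonucleotides that reads one transcript) assigned to 1 of these genes alone was used. This gave all 9 genes, of the 12393 genes with a probe set of their own, and 21 probe sets of the 22626 that are not controls. Gja1 had 6, Clu 4, Gfap, Aqp4, Glul and S100b 2 each, and Apoe, Gpr37l1 and Sparcl1 1 each. All 21 lay in the brighter 50% of probe sets that were tested, so none was lost to the filter on dim signals. Where 1 value per gene is given, it is that of the gene's brightest probe set over all 9 arrays.

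Astrocytes are the glial cells that hold the fluid around neurons constant. They take up released glutamate and potassium, move water through channels in the processes that wrap blood vessels, share ions through gap junctions and supply neurons with lipid particles. After injury or disease they become reactive and make more of the intermediate filament protein Gfap. In the ventral horn their fine processes lie against the bodies of motor neurons, the cells lost in spinal muscular atrophy (SMA), a disease caused by too little of the protein SMN.

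The study compared 3 groups of 3 mice. Wild-type mice given vehicle were set against transgenic SMA mice given vehicle and SMA mice transplanted with cells labelled NSC, which stands for neural stem cells in what is known of this work. Vehicle or cells were given by surgery at postnatal day 1, death was at 13 days of age, and each array read the pooled motor neurons of 1 animal, cut from sections of 16 µm of the lumbar cord with about 100 cells per cap. The cords were fixed by PFA perfusion, and RNA was amplified before labelling. The alleles of the SMA line, the strain and the sex are not given in the labels, and the animals are the replicates.

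Signals are MAS5 values, a linear brightness in arbitrary units with the same trimmed mean on each array. Array medians were 31.4 to 35.8 and totals 3264246 to 3508703. Log2 values of 2 arrays of one group correlated at 0.94 to 0.98, and those of 2 arrays of different groups at 0.95 to 0.97. Wild type 3 and SMA 3 had the most 18S ribosomal RNA (2940 and 2765, against 839 to 1832 elsewhere). SMA 1 and SMA 2 carried muscle transcripts: the summed signal of 10 muscle markers was 2582 and 3207 there and 108 to 266 on the other arrays. Xist, an RNA of females, was not balanced over the groups: its signal was 23.5 to 47.6 for SMA 3 and all wild-type mice and 366.1 to 879.5 for the others. Eif2s3y, a gene of the Y chromosome, read 49 to 75.1 in wild type, 108.9 on SMA 3 and 84.8 on transplanted SMA 3. On the remaining arrays it read 0.1 to 0.5. Transplanted SMA 3 thus carried both RNAs, and why was not tested. Of 10 motor neuron markers with a probe set, 3 lay in the brighter 50%, and all 10 together summed to 168 to 428 per array. Dim ones outside the brighter 50% were Slc18a3, Isl1, Prph and Slc5a7, with mean signals of 13.4, 8.83, 26.9 and 7.9.

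The astrocyte markers were bright on all arrays, although the labels describe motor neurons. Over the 9 arrays the brightest probe sets of the 9 genes had mean signals of 880 ± 614 (SD, n = 9) for Gfap to 4680 ± 843 for Apoe. By brightness they stood at percentiles 96.9 to 99.8 of all probe sets, and the dimmest of the 21, a Gja1 probe set, at 57.9. Brightness depends on the probes as well as on the transcript, so these ranks are not amounts of RNA. In cells cut from tissue, fewer astrocyte processes and less RNA per astrocyte cannot be told apart.

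No astrocyte marker passed the test between any groups. With limma, an adjusted p under 0.05 was reached by 0 of 21 probe sets in SMA minus wild type, where 0.0442% of all 11313 tested probe sets were called, and by 0 of 21 in transplanted SMA minus SMA and in transplanted SMA minus wild type, where the share over all probe sets was 0% in both. At an unadjusted p under 0.05 there was 1 of 21 (4.76%) in each comparison, against 6.04%, 4.77% and 6.55% of all probe sets. Groups did not overlap for 1, 2 and 2 of the 21, or 4.76%, 9.52% and 9.52%, where the shares over all probe sets were 11.4%, 9.11% and 14.1%. These shares were near or below the background. The median log2 difference over the 9 genes was 0.07, 0.26 and 0.19, beside 0.01, 0 and -0.01 over all probe sets.

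**Figure D1:**
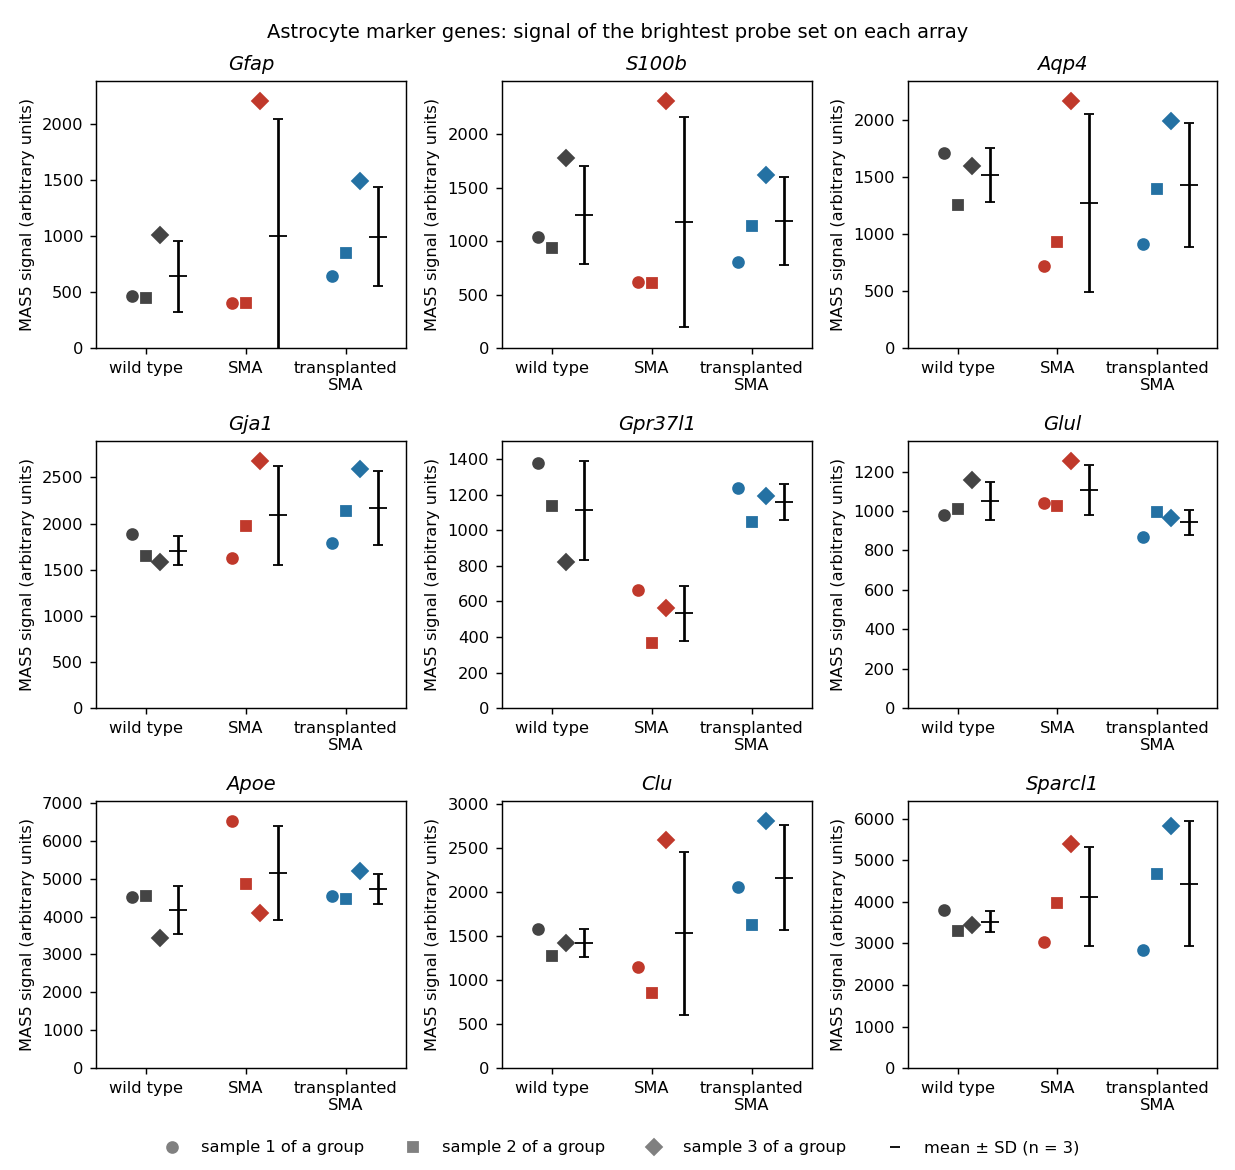
MAS5 signal (linear, arbitrary units, axis from 0) of the brightest probe set of each of the 9 genes; each point is 1 array, circles, squares and diamonds mark samples 1, 2 and 3 of a group, and bars give the mean ± SD of 3 arrays (the bar of Gfap in SMA would reach below 0 and is cut there). SMA 3 (red diamond) stands at 2206.1 for Gfap and 2310.5 for S100b, far above SMA 1 and SMA 2, while the SMA arrays of Gpr37l1 lie below all others.

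Gfap, the intermediate filament of astrocytes, varied most of the 9 genes. Signals were 469.1, 445.6 and 1007.3 (wild type 1, 2 and 3), 399.6, 406.2 and 2206.1 (SMA 1, 2 and 3) and 644.3, 847.5 and 1490 (transplanted SMA 1, 2 and 3). The highest and the lowest array were both from SMA animals and differed 5.52-fold, so the groups overlapped throughout. Group means were 641 ± 318 (SD, n = 3), 1000 ± 1040 and 994 ± 441. The log2 difference was 0.26 in SMA minus wild type (95% interval -1.05 to 1.56, limma adjusted p = 1), 0.38 in transplanted SMA minus SMA (-0.92 to 1.68, adjusted p = 0.967) and 0.64 in transplanted SMA minus wild type (-0.67 to 1.94, adjusted p = 0.907). All of these intervals are wide enough to hold a doubling. The value in SMA minus wild type turned to -0.55 without SMA 3 and to 1.86 without SMA 1 and SMA 2. Transplanted SMA minus SMA gave 1.18 without SMA 3 and -1.23 without SMA 1 and SMA 2. The other Gfap probe set followed it closely (Pearson r = 0.95 over 9 arrays), with 359, 362.7 and 1844.2 in SMA.

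S100b, a calcium-binding protein of astrocytes that other glia also make, had the same high arrays. It read 1039.9, 931.2 and 1773.2 (wild type 1, 2 and 3), 613.4, 604.6 and 2310.5 (SMA 1, 2 and 3) and 805.7, 1142.2 and 1618.5 (transplanted SMA 1, 2 and 3). Again SMA held both the highest array and the lowest 2. Differences were -0.33 (SE 0.47) in SMA minus wild type, 0.26 (SE 0.47) in transplanted SMA minus SMA and -0.07 (SE 0.47) in transplanted SMA minus wild type. Without SMA 3 the first of these was -0.96, and without SMA 1 and SMA 2 it was 0.94. The dimmer probe set correlated with it at 0.96 and gave -0.39, 0.37 and -0.02.

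Aqp4, the water channel of the processes on blood vessels, gave no difference past the threshold either. Its brighter probe set read 1710.8, 1254.4 and 1596.2 (wild type 1, 2 and 3), 723.6, 930.8 and 2170.8 (SMA 1, 2 and 3) and 910.7, 1394.4 and 1994.2 (transplanted SMA 1, 2 and 3). SMA 1, transplanted SMA 1 and SMA 2 were the lowest 3 arrays, and SMA 3 was the highest. The log2 difference was -0.40 in SMA minus wild type (95% interval -1.23 to 0.43) and turned to 0.52 without SMA 1 and SMA 2. The other probe set read lower on SMA 1 and SMA 2 too (258.7 and 280) and gave -0.40 (-0.93 to 0.12), but its highest array was wild type 1 at 563.1.

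Gja1 encodes the main connexin of the gap junctions between astrocytes. Its brightest probe set read 1889.2, 1648.6 and 1583.7 (wild type 1, 2 and 3), 1626.6, 1971.6 and 2678.1 (SMA 1, 2 and 3) and 1793.4, 2133.9 and 2590.1 (transplanted SMA 1, 2 and 3). The 3 groups overlapped, with SMA 3 and transplanted SMA 3 highest. Differences were 0.26 (SE 0.2) in SMA minus wild type, 0.07 (SE 0.2) in transplanted SMA minus SMA and 0.33 (SE 0.2) in transplanted SMA minus wild type. Its 6 probe sets did not move as one. Their pairwise r over the 9 arrays ran from -0.04 to 0.9 with a median of 0.36. A dim one (mean signal 113 ± 28.5, SD, n = 9) read 70.6, 86.6 and 100.4 in wild type and 133.5, 118.3 and 147.6 in transplanted SMA, without overlap. It gave 0.56 (SE 0.21), the smallest p of the 21 in that comparison, at a limma adjusted p of 0.699. The dimmest gave 0.07 and the third brightest -0.07.

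Gpr37l1, a G protein-coupled receptor on the surface of astrocytes, set the groups apart more than the other 8 genes. Its single probe set read 1375.7, 1138.8 and 822 (wild type 1, 2 and 3), 665, 366.4 and 565.8 (SMA 1, 2 and 3) and 1239.9, 1046.6 and 1190.9 (transplanted SMA 1, 2 and 3). Every SMA array was below every array of both other groups, and the wild-type and transplanted arrays overlapped. Group means were 1110 ± 278, 532 ± 152 and 1160 ± 100 (SD, n = 3 each). The log2 difference was -1.05 in SMA minus wild type (SE 0.24, 95% interval -1.58 to -0.52, limma adjusted p = 0.408) and 1.14 in transplanted SMA minus SMA (SE 0.24, 0.60 to 1.67, adjusted p = 0.933). It was 0.09 in transplanted SMA minus wild type (SE 0.24, -0.45 to 0.62, adjusted p = 0.975). The first 2 comparisons share the 3 SMA arrays, so a low value there enters both.

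Over all 11313 probe sets, Gpr37l1 ranked number 32 by p in SMA minus wild type and number 1 in transplanted SMA minus SMA, yet neither difference passed the adjustment. Over 21 other settings the difference stayed between -1.31 and -0.81 in SMA minus wild type, with adjusted p from 0.264 to 1. It stayed between 0.90 and 1.31 in transplanted SMA minus SMA, with adjusted p from 0.237 to 1. Settings that changed only the filter, variance model, block or arrays outside the comparison could not move the difference. The mean of a gene's probe sets could not either, as Gpr37l1 has 1. Without SMA 1 and SMA 2, which carried muscle transcripts, the difference was -0.92 and 1.01. The part of muscle RNA in these differences was not tested. Gpr37, the related receptor most known from oligodendrocytes, read 662.8, 702 and 357.1 (wild type 1, 2 and 3), 266.5, 375 and 337.6 (SMA 1, 2 and 3) and 263, 285.5 and 699.1 (transplanted SMA 1, 2 and 3). Its difference of -0.74 (SE 0.36) in SMA minus wild type did not pass, and it stayed low on 2 of 3 transplanted arrays, where Gpr37l1 was high. Psap, whose protein prosaposin is a proposed ligand of both receptors, gave 0.28 (SE 0.16). A list set beside Gpr37l1 held 8 tested genes, among them Gpr37, Psap, Ptch1 and the receptor kinases Tyro3, Axl and Mertk. Whether each works with Gpr37l1 was not tested. Of the 8, 4 were higher and 4 lower in SMA than in wild type. After transplantation 4 were higher and 4 lower than in SMA, and 6 higher and 2 lower than in wild type. None of the 8 passed with limma, and 0 had an unadjusted p under 0.05.

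**Figure D2:**
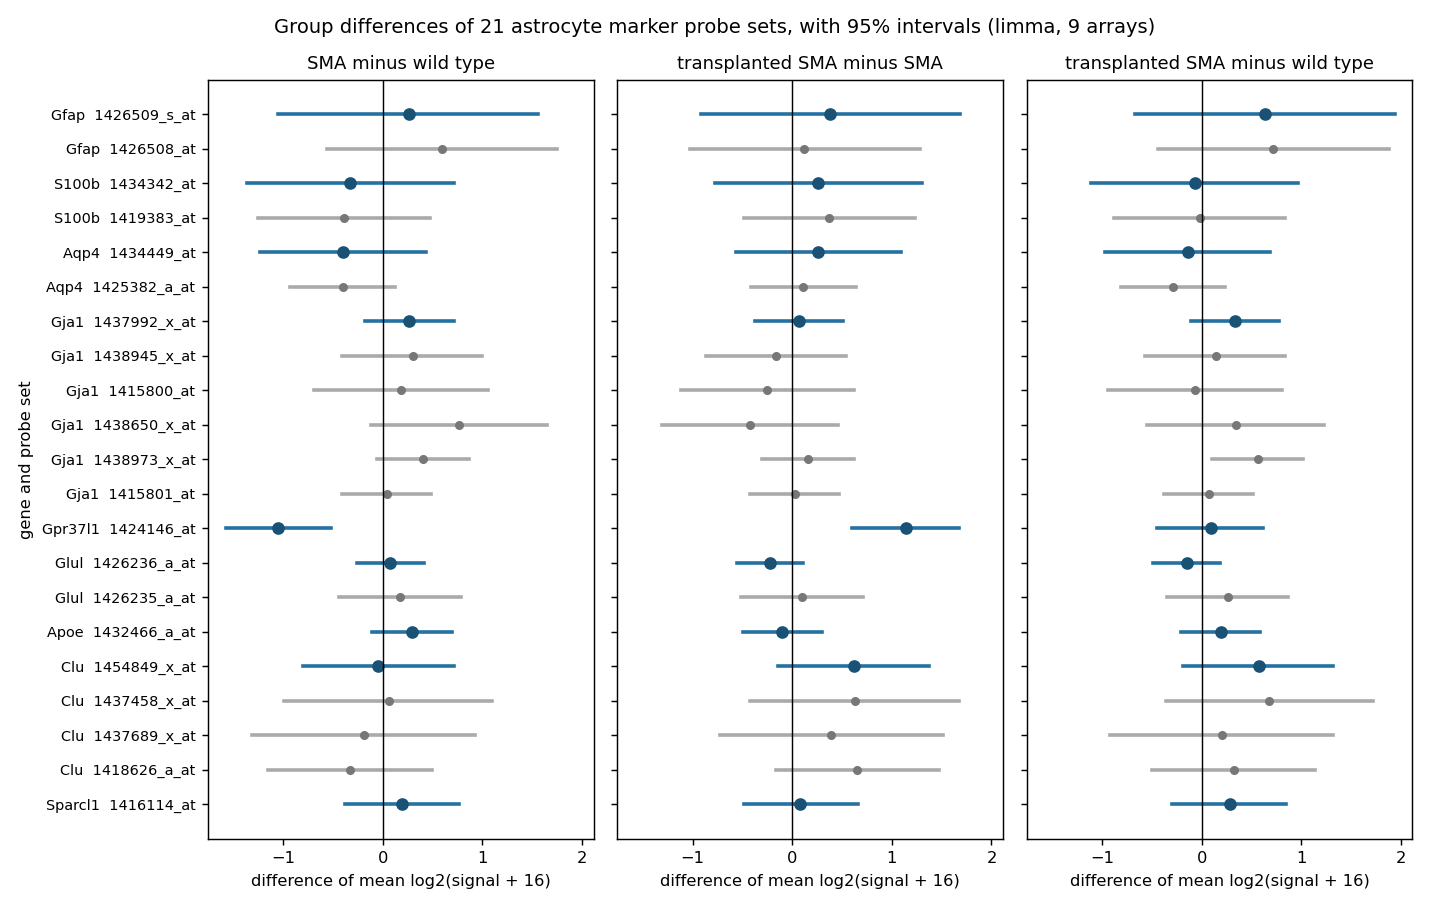
Differences of mean log2(signal + 16) (x axis) for the 21 probe sets (y axis) in the 3 comparisons, each with its 95% interval from limma; blue marks the brightest probe set of a gene and grey the others. The intervals of Gpr37l1 lie below 0 in SMA minus wild type (-1.58 to -0.52) and above 0 in transplanted SMA minus SMA (0.60 to 1.67), and the only other interval off 0 is that of a dim Gja1 probe set in transplanted SMA minus wild type (0.10 to 1.02); none passed adjustment over all probe sets.

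Glul, glutamine synthetase, turns the glutamate that astrocytes take up into glutamine. By the brightest probe set of each gene it was the steadiest of the 9. The signals were 980.9, 1012.4 and 1158.6 (wild type 1, 2 and 3), 1040.7, 1025.6 and 1254.4 (SMA 1, 2 and 3) and 870.3, 993.5 and 963.9 (transplanted SMA 1, 2 and 3). The highest array was 1.44 times the lowest. Each transplanted array was below each SMA array, by little: the log2 difference was -0.22 (95% interval -0.56 to 0.11, limma adjusted p = 0.933). Its other probe set gave 0.10 in that comparison and correlated with the first at -0.62 over the 9 arrays, so the pair disagreed on the order of the animals. The other probe set was also less steady, from 343.7 on wild type 3 to 823.9 on SMA 1, or 2.4-fold.

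Apoe and Clu encode secreted lipid carriers, apolipoprotein E and clusterin. Apoe read 4517.9, 4536.7 and 3432.9 (wild type 1, 2 and 3), 6517.3, 4847.1 and 4092.9 (SMA 1, 2 and 3) and 4552.8, 4452.3 and 5190.8 (transplanted SMA 1, 2 and 3). Its highest array was SMA 1, one of those where Gfap was low, and its difference was 0.29 (SE 0.18) in SMA minus wild type, -0.10 (SE 0.18) in transplanted SMA minus SMA and 0.19 (SE 0.18) in transplanted SMA minus wild type. The first of these was -0.01 without SMA 1 and SMA 2. Clu read 1583.3, 1270.9 and 1419.5 (wild type 1, 2 and 3), 1156.1, 858.7 and 2591.3 (SMA 1, 2 and 3) and 2055.3, 1628.3 and 2809.3 (transplanted SMA 1, 2 and 3). All transplanted arrays were above all wild-type arrays, with a difference of 0.57 (95% interval -0.19 to 1.32, limma adjusted p = 0.834). The 3 other Clu probe sets gave 0.68, 0.20 and 0.32 in that comparison, and their groups overlapped. In SMA minus wild type Clu gave -0.05 (SE 0.34), and 0.86 without SMA 1 and SMA 2.

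Sparcl1, a secreted matrix protein (hevin) that helps excitatory synapses form, read 3802.4, 3308.9 and 3444.4 (wild type 1, 2 and 3), 3024.7, 3960.8 and 5382.5 (SMA 1, 2 and 3) and 2837.3, 4658.6 and 5819.2 (transplanted SMA 1, 2 and 3). The wild-type arrays lay close together, inside the span of both SMA groups. Differences were 0.19 (SE 0.26), 0.08 (SE 0.26) and 0.28 (SE 0.26) in the 3 comparisons in the order given above.

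Several markers moved together, and the SMA animals differed among themselves. Relative to its mean over all arrays, the average log2 value of the 9 genes was -0.39 on SMA 1, -0.46 on SMA 2 and 0.49 on SMA 3. It was 0.01, -0.17 and 0.05 in wild type and -0.13, 0.10 and 0.49 in transplanted SMA. Sample 3 was thus the highest of each group, if by little in wild type, and the same held for Gfap and S100b. The labels do not say what the sample number marks. SMA 3 was the highest array for 5 of the 9 genes and transplanted SMA 3 for 2. Of the 36 pairs of genes, 9 had an r above 0.7 over the 9 arrays and 11 were negative. Gfap and S100b (r = 0.91, rho = 0.92, and r = 0.83 without the 2 arrays farthest from the median of the gene named first), Aqp4 and S100b (0.91, 0.87 and 0.85) and Gja1 and Sparcl1 (0.92, 0.83 and 0.77) were the closest. The r of 0.75 between Gfap and Gja1 rested on 2 arrays, and was 0.05 without those farthest from the Gfap median. Gpr37l1 had an r of 0.12 with the mean of the other 8 genes, Glul 0.26 and Apoe -0.43, against 0.72 to 0.86 for the remaining 6. These correlations describe the 9 arrays, which share groups, labelling and scaling, and carry no test.

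By summed signal, oligodendrocyte markers moved with this pattern and neuron markers in part against it. Summed over 12 oligodendrocyte markers, the signal was highest on SMA 3 (44820) and transplanted SMA 3 (47269) and lowest on SMA 1 (28480) and SMA 2 (25508), with 33293 to 38734 on the other arrays. The average log2 value of these markers, where bright genes weigh less, matched less well. Transplanted SMA 1 (-0.39) was below SMA 2 (-0.31), and wild type 2 (0.28) above SMA 3 (0.21). The summed signal of 15 neuron markers was lowest on the same high arrays (2194 and 2320, against 2806 to 5484). Microglial markers did not follow, with sums of 11903 to 13716 on the 3 SMA arrays and 6093 to 15759 elsewhere. SMA 3 also had the highest 3'/5' ratio of actin (4.32, against 2.48 to 3.66), and transplanted SMA 3 had 2.76. The same ratio of Gapdh was 3.92 on SMA 3 and 3.82 on transplanted SMA 3. It was highest on SMA 1 (4.26) and 3.19 to 3.63 on the other arrays. On SMA 3 and transplanted SMA 3, 18S RNA was 2765 and 1389. The part of other cells, of RNA quality and of sex in the astrocyte values was not tested.

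**Figure D3:**
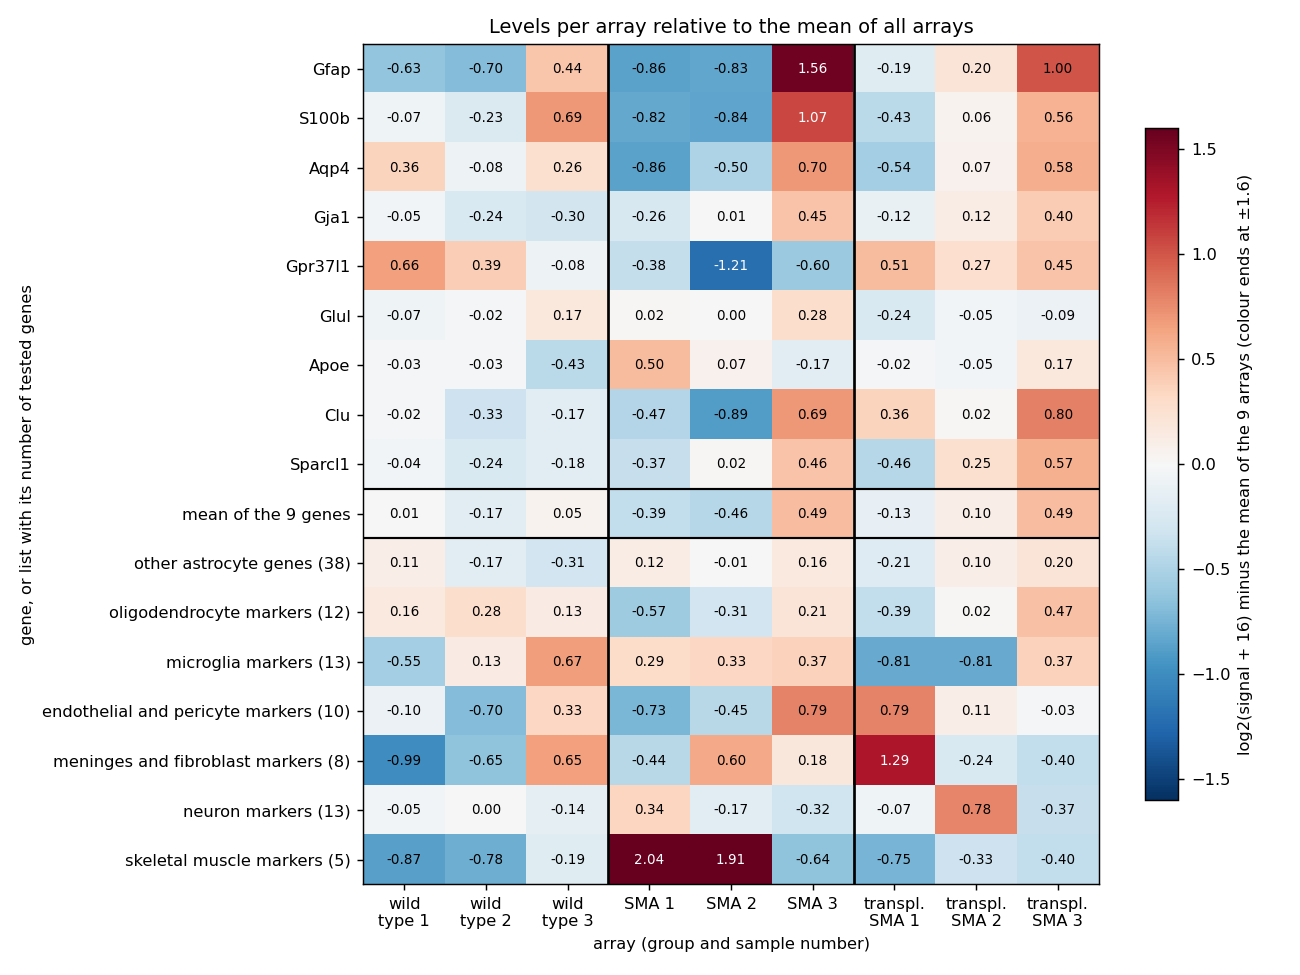
Log2(signal + 16) minus its mean over the 9 arrays (colour and printed value) for the 9 genes, their mean, and the average of tested genes in 7 lists (number of genes in brackets), by array. SMA 3 and transplanted SMA 3 are high for most markers (mean 0.49 on both) and SMA 1 and SMA 2 low (-0.39 and -0.46); Gpr37l1 is low on all 3 SMA arrays, and the muscle markers (2.04 and 1.91) stand out on SMA 1 and SMA 2.

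Among all 7245 other tested genes, those whose 9 values were most like the average of the markers were Pdlim2 (r = 0.96), Prnp (0.94), Mobp (0.94), Septin8 (0.94) and Scd2 (0.93). Mobp is a myelin protein, Prnp the prion protein and Scd2 a fatty acid desaturase. Closest to Gfap were Pcnp (0.96), Pdlim2 (0.96), Papss2 (0.95), Capn2 (0.95) and the neurotensin receptor Ntsr2 (0.94), which is itself an astrocyte gene. Closest to Gpr37l1 were Stard4 (0.94), a sterol carrier, Arl2 (0.93), Adam12 (0.91), the growth factor gene Tgfa (0.91) and Fam89a (0.91). These names are a description of 9 arrays and carry no test.

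Promoters are shown for Gfap and S100b, which tracked each other, and for Gpr37l1, which did not. Each is the 250 bases before the RefSeq start of the gene in GRCm38.p6, 5′ to 3′ on the gene's strand; 6 of the 9 genes had an entry. They were searched on both strands for the NFI core TTGGCA, the STAT site TTCNNNGAA and the SOX core ACAAAG, motifs of factors known from astrocyte genes, and capitals mark a match. Of all 32851 windows of this length, 12.3%, 7.02% and 16.5% held these letters. S100b held the NFI core, and the windows of Gfap and Gpr37l1 held none of the 3 motifs. A match describes the letters and shows no binding.
Gfap, chr11:102897201-102897450, minus strand: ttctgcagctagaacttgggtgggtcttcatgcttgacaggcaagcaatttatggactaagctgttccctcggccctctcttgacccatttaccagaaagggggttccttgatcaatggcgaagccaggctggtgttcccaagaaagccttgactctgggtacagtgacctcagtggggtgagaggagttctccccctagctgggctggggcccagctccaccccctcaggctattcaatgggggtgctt
S100b, chr10:76253586-76253835, plus strand: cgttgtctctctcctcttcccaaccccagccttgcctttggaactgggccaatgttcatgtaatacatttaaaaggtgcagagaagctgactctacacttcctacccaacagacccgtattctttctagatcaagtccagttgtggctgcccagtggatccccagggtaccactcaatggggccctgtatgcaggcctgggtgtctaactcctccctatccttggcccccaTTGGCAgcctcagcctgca
Gpr37l1, chr1:135167682-135167931, minus strand: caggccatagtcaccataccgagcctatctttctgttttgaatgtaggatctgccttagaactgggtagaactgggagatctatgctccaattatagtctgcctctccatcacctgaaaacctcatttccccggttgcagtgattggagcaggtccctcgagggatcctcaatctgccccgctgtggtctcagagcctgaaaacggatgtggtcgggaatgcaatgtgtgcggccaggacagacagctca

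A wider list of 47 other astrocyte genes, of which 38 were tested, gave 1 call. Mt2, which encodes a metal-binding metallothionein, rose from a signal of 854 ± 59.3 (SD, n = 3) in wild type to 3170 ± 824 in SMA, a difference of 1.84 (SE 0.22) at a limma adjusted p of 0.0135. That call was lost when wild type 1, wild type 2, wild type 3 or SMA 1 was left out, where adjusted p ran from 0.0687 to 0.124. Its partner Mt1 gave 1.54 (SE 0.29, adjusted p = 0.253) and passed without SMA 2 (adjusted p = 0.0348). Of the 38, 21 were higher and 17 lower in SMA, with a median of 0.13. An unadjusted p under 0.05 was reached by 6 of the 38, a larger share than the 6.04% of all probe sets. The list was chosen with earlier results of these data known, so this share is no test. After transplantation, against SMA, 17 were higher and 21 lower (median -0.08), and 0 passed with limma. An unadjusted p under 0.05 was reached by 3 of the 38, beside 4.77% of all probe sets. The smallest p there belonged to Id4, an inhibitor of basic helix-loop-helix factors, at -0.84 (SE 0.26), and to the glutamate transporter Slc1a2 at 0.87 (SE 0.32). Slc1a2 read 41.5, 53.4 and 130.5 on SMA 1, 2 and 3, and its difference was 0.06 without SMA 1 and SMA 2, the arrays with muscle transcripts. Against wild type, 26 transplanted values were higher and 12 lower (median 0.12), again with 0 calls. Here 5 of the 38 had an unadjusted p under 0.05, a larger share than the 6.55% of all probe sets. Mt2 gave 1.37 (SE 0.22, adjusted p = 0.105) and Mt1 1.12 (SE 0.29). Mt2 passed in that comparison when the 6 compared arrays were fitted alone (adjusted p = 0.0433) and when SMA 1 and SMA 2 were left out (adjusted p = 0.0408).

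Genes that reactive astrocytes make were not highest where Gfap was. Of 39 listed, 19 were tested, and the average of these was -0.03 on SMA 3 and 0.56 on transplanted SMA 1, its highest array, where Gfap stood at 1.56 and -0.19. Transplanted SMA 1 was also highest for markers of meninges and fibroblasts (average 1.29) and had the highest summed signal of endothelial and pericyte markers (2820, against 744 to 2690 elsewhere). In SMA minus wild type 13 were higher and 6 lower (median 0.25). An unadjusted p under 0.05 was reached by 4 of the 19, a larger share than the 6.04% of all probe sets. This list, too, was chosen with earlier results of these data known. Only 1 passed: Hspb1, a small heat shock protein, from 71 ± 15.5 to 302 ± 60.8 (1.87, SE 0.22, limma adjusted p = 0.0135). It lost the call without wild type 1, wild type 2 or SMA 1, where adjusted p ran from 0.104 to 0.135. Hspb1 read 368.5, 288.5 and 249.2 on SMA 1, 2 and 3, and its difference was 1.62 without SMA 1 and SMA 2, the arrays with muscle transcripts. The part of muscle RNA in the Hspb1 difference was not tested. Fkbp5, a cochaperone of the glucocorticoid receptor, gave 1.05 (SE 0.27) and did not pass. Against SMA, 14 were higher after transplantation and 5 lower (median 0.15), with 0 calls. An unadjusted p under 0.05 was reached by 2 of the 19, beside 4.77% of all probe sets. The smallest p belonged to the cytokine signalling inhibitor Socs3 at 1.70 (SE 0.4) and to Hspb1 at -1.02 (SE 0.22). Against wild type, 16 were higher after transplantation and 3 lower (median 0.49), with 0 calls. Here 5 of the 19 had an unadjusted p under 0.05, a larger share than the 6.55% of all probe sets. Socs3 gave 1.81 (SE 0.4, adjusted p = 0.326) and Hspb1 0.85 (SE 0.22). In that comparison the meninges and fibroblast markers had a median of 0.52 and the endothelial and pericyte markers 0.48, and their part in the values of the reactive genes was not tested.

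Partners of the markers by function gave 0 calls in the 3 comparisons with limma. Of 9 tested genes for water, potassium and gap junctions, 4 were higher and 5 lower in SMA. An unadjusted limma p under 0.05 was reached by 2 of the 9, beside 6.04% of all probe sets. The connexins Gjb6 and Gjb2, which astrocytes also make, gave 0.84 (SE 0.35) and 0.48 (SE 0.21). All 3 SMA arrays were above all wild-type arrays for both, and 11.4% of all probe sets had no overlap in that comparison. Among 10 genes of glutamate and glutamine handling, 8 were lower in SMA and 8 higher in transplanted SMA minus SMA. In these comparisons 1 and 2 of the 10 had an unadjusted p under 0.05, beside 6.04% and 4.77% of all probe sets. The glutamine transporter Slc38a5 gave -0.75 (SE 0.26) and 0.68 (SE 0.26) in these, with the SMA arrays counted in both, and -0.43 and 0.36 without SMA 1 and SMA 2.

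Genes of lipid transport also gave 0 calls. Of 9 tested, 5 were higher and 4 lower in SMA. An unadjusted p under 0.05 was reached by 3 of the 9, beside 6.04% of all probe sets. The cholesterol exporters Abca1 and Abcg1, which load Apoe particles, gave 0.77 (SE 0.2, limma adjusted p = 0.534) and 0.70 (SE 0.21, adjusted p = 0.599). SMA and wild type did not overlap for either, nor for 11.4% of all probe sets. Abca1 was 0.41 without SMA 1 and SMA 2. Against SMA, the transplanted arrays gave differences of -0.67 (SE 0.21) for Abcg1 and -1.21 (SE 0.35) for lipoprotein lipase Lpl. There, too, 3 of 9 had an unadjusted p under 0.05, beside 4.77% of all probe sets, with 0 calls. Lpl, which muscle also makes, read 228 and 466 on SMA 1 and SMA 2, the arrays with muscle transcripts, and 138.5 on SMA 3, and its difference was -0.44 without SMA 1 and SMA 2. The part of muscle RNA in it was not tested.

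Relatives of S100b and Sparcl1 gave 0 calls among 10 tested genes. S100a4, a calcium-binding protein found in many motile cells, gave 0.80 (SE 0.23) in SMA minus wild type and 0.88 (SE 0.23) in transplanted SMA minus wild type, with signals of 21.8 to 25.3 in wild type and 38.8 to 80.5 on the other arrays. Gpc4, a glypican that astrocytes secrete to promote synapses, gave 0.61 (SE 0.2) in transplanted SMA minus wild type. Vim, the other intermediate filament of astrocytes, read 457, 461.2 and 703.5 (wild type 1, 2 and 3), 755.3, 1147.1 and 735.3 (SMA 1, 2 and 3) and 2060.5, 674.3 and 728.4 (transplanted SMA 1, 2 and 3). Its highest array was transplanted SMA 1, where 10 markers of meninges and fibroblasts, which also make Vim, summed to 8155 against 1509 to 5007 elsewhere. Gfap's 3 tested filament and cytoskeleton partners, Vim among them, had positive differences in all 3 comparisons (medians 0.22, 0.22 and 0.70), and none passed; Vim in transplanted SMA minus SMA was -0.29 without transplanted SMA 1. The Vim differences of 0.68 (SE 0.38) in SMA minus wild type and 0.91 (SE 0.38) in transplanted SMA minus wild type did not pass, and the latter was 0.39 without transplanted SMA 1.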

How the data were processed

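Array signals were deposited as MAS5 intensity values for 9 samples, made by the authors with MAS5 per the submitters' processing notes; the MAS5 version is not stated there. The 64 control probe sets were left out. Of 22626 others, 20380 named 1 gene in the platform annotation, 691 several and 1555 were not listed. Log2(signal + 16) was used, which understates changes of dim genes. The brighter 50% by mean over all arrays (11313) was tested with limma 3.58.1 in R 4.3.3 (lmFit, eBayes with trend, 1 mean per group, 6 residual and 4.93 prior degrees of freedom), two-sided, with Benjamini-Hochberg adjustment over all tested probe sets and a threshold of 0.05. The script was tested on simulated data. Genes were named by rule: all probe sets of the 9 members, and the 5 genes most alike over the arrays. Of 8 related lists, the rule named called members and the 2 with the smallest p of each list per comparison (not all are printed). Xist, Eif2s3y and the dim motor neuron genes were added with their values known. The members and lists were chosen with earlier results of these data known. The number of arrays limits the precision. The alternatives were other scalings, pseudocounts, filters and variance models, the sample number as a block, and leaving out arrays; leaving out wild type 3 and SMA 3 was chosen after seeing the data.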

Additional observations from a re-analysis of the deposited data

How the results depend on the processing

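The count of 0 marker probe sets past the threshold held in all 3 comparisons under each of the 20 other settings in which it was counted, among them quantile normalisation, median centring, pseudocounts of 1 and 64, no filter or the brighter 25%, no trend and the 6 compared arrays alone. The smallest adjusted p of a marker over these settings was 0.170 for SMA against wild type, 0.237 for transplanted SMA against SMA and 0.179 for transplanted SMA against wild type. Of 567 repeats of the 27 marker differences, 38 turned direction and 529 did not, those that rounded to 0 included. Many of the repeats could not turn. A change of filter, variance model or block, or of arrays outside the comparison, left the difference itself as it was. Groups of 3 arrays and signal near background limit the dim genes most. No result met the rules for a closer look, and groups of 3 were too small to test for outlying arrays. Calls of Mt2 and Hspb1 that were lost, and those of Mt1 and Mt2 that were gained, when 1 array was left out or only the compared arrays were fitted are given above; leaving out SMA 1 and SMA 2 together gave Mt2 an adjusted p of 0.0524 and Hspb1 0.196, and leaving out wild type 3 and SMA 3 gave Mt2 0.099.

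Directions turned mostly with the SMA arrays left out; the cause was not tested. In SMA minus wild type, without SMA 1 and SMA 2, Aqp4 was 0.52, Apoe -0.01, Clu 0.86 and S100b 0.94, and without wild type 3 and SMA 3, Gfap was -0.18, Sparcl1 -0.04 and Plec -0.01. In transplanted SMA minus SMA, without SMA 1 and SMA 2, Gfap was -1.23, Aqp4 -0.66, Apoe 0.21, Gja1 -0.32, Clu -0.29, S100b -1.01, Sparcl1 -0.34, Atp1b2 -0.10 and S100a16 -0.04. In transplanted SMA minus wild type, without wild type 3 and SMA 3, Gpr37l1 was -0.11 and S100b 0.21. With the mean of a gene's probe sets, Gja1 was -0.10 in transplanted SMA minus SMA and Glul 0.06 in transplanted SMA minus wild type. Leaving out 1 array at a time gave, in SMA minus wild type, -0.55 to 0.66 for Gfap, -0.50 to 0.28 for Clu, -0.02 to 0.14 for Glul, -0.02 to 0.39 for Sparcl1 and -0.06 to 0.40 for Plec. In transplanted SMA minus SMA it gave -0.03 to 1.18 for Gfap, -0.06 to 0.72 for Aqp4, -0.25 to 0.08 for Apoe, -0.10 to 0.26 for Gja1, -0.06 to 0.89 for S100b, -0.14 to 0.38 for Sparcl1 and -0.29 to 0.50 for Vim. In transplanted SMA minus wild type it gave -0.41 to 0.14 for Aqp4, -0.11 to 0.25 for Gpr37l1 and -0.32 to 0.21 for S100b, and, with no change of sign, 0.30 to 1.01 for Gfap, 0.05 to 0.57 for Sparcl1 and 0.39 to 1.19 for Vim.

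The labels do not say whether samples with the same number in different groups are pairs. Their deviations from the group means correlated at -0.08 to 0.45 over 9 pairs (median 0.12), against -0.47 to 0.33 over 18 other pairs (median -0.05). The own number was the best match in 11 of 18 cases, each with 3 candidates. With the number as a replicate block, Gpr37l1 was -1.05 (SE 0.2, adjusted p = 0.302) in SMA minus wild type and 1.14 (SE 0.2, adjusted p = 0.684) in transplanted SMA minus SMA. In SMA minus wild type the block lowered the SE of Gfap from 0.59 to 0.28 and that of S100b from 0.47 to 0.25. The count of marker calls was 0 in the 3 comparisons, and 2, 4 and 3 marker probe sets had an unadjusted p under 0.05. Over all probe sets the block gave 5, 0 and 0 calls.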
